A study of Mus musculus with 47 samples.

Results

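The 7 wild-type (WT) lungs of embryos at E18.5 were compared here by the family they came from: 4 lungs from litters that also held embryos homozygous for the Daxx allele S226A and 3 lungs from litters with embryos homozygous for the allele Y130A. They were chosen by tissue and genotype alone and make up 7 of the 47 libraries of the series. The other 40 hold the mutant lungs and the livers and brains. Both alleles are knock-ins that change 1 amino acid of Daxx, a chaperone of the histone variant H3.3, and all embryos came from crosses of heterozygous parents. The labels give the strain as C57BL/6, and by the study's methods the alleles were made in C57BL/6N zygotes and the founders backcrossed to C57BL/6J. The 7 lungs carry neither allele, so that no genotype that the labels give separates the groups, and each lung came from a litter of its own. The WT lungs of the S226A litters came from litters 2972, 2881, 2875 and 2970 (replicates 1 to 4), and those of the Y130A litters from litters 2848, 2851 and 2974 (replicates 1 to 3). Values are given in these orders throughout. In litter 2970 the WT lung was taken from another embryo than the WT liver and brain. The mutant lungs of the same litters, and of litter 3069 of the Y130A set, were used where a pattern of the WT lungs was looked up in other libraries.

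Shortly before birth the mouse lung is in its saccular stage. Distal airways widen into sacs, their lining cells become alveolar type 1 cells, which form the thin wall for gas exchange, or alveolar type 2 cells, which make surfactant. The mesenchyme between the sacs thins as its cells divide less. Fetal glucocorticoids and the oxygen-sensitive factor encoded by Epas1 take part in this maturation.

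The total number of reads counted on genes was 18155260, 18958006, 17387644 and 15722147 in the WT lungs of the S226A litters, and 39504088, 41668826 and 42222108 in those of the Y130A litters. The Y130A set had on average 2.34 times as many (two-sided exact permutation test, p = 0.0286, the smallest value that 4 against 3 libraries allow). With each library thinned to 15722147 reads, 15656 to 16444 genes were detected in the S226A set and 16273 to 16757 in the Y130A set (exact permutation p = 0.229). Y-linked genes were at background in 2 of the 4 and 1 of the 3 lungs, so that both groups held female and male embryos. Surfactant genes were among the most abundant genes in all 7, with Sftpc between 4772 and 8155 CPM (counts scaled to a common library size by TMM) and the type 1 marker Ager between 917 and 1170 CPM. Daxx stood at 27.2 to 34.2 CPM (log2 fold change -0.15, SE 0.10, adjusted p = 0.30). Set of litters, depth and anything else that went with the set cannot be told apart in these 7 libraries.

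The WT lungs of the S226A litters held higher levels of the lung factors Epas1, Nkx2-1, Sox9 and Foxa1, of the polymerase subunit gene Polr2a and of the matrix gene Fn1. They held lower levels of the cardiac troponin gene Tnnt2 and of the mitotic genes Cdca3 and Depdc1a. For Nkx2-1, Sox9 and Foxa1 the higher levels lay mainly in litters 2875 and 2970. Without these lungs their log2 fold changes were 0.26, 0.47 and 0.51. A gene was called when its adjusted p (edgeR quasi-likelihood fit to all 47 libraries, Benjamini-Hochberg) was below 0.01, its log2 fold change was beyond 1 in either direction and its standard error (SE) was below 1, with the S226A litters over the Y130A litters as direction. By these criteria 273 of 16892 genes were called (1.62% of the genes tested), 247 higher (1.46%) and 26 lower (0.154%) in the S226A litters. At an unadjusted p below 0.05 there were 5337 genes (31.6%) and at an adjusted p below 0.05 there were 3388 (20.1%). Among the latter the directions were nearly even, with 1827 genes higher (10.8%) and 1561 lower (9.24%), and the median log2 fold change of all genes was 0.00. The 4 and the 3 libraries did not overlap in 210 of the 247 higher and 25 of the 26 lower genes. Of all genes tested 3720 did not overlap (22.0%), 1807 of them higher (10.7%) and 1913 lower (11.3%).

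The 4 lungs of the S226A litters did not share the difference equally. The median deviation of the 247 higher genes from the mean of the Y130A set was 0.756, 0.594, 1.53 and 1.75 on the log2 scale in litters 2972, 2881, 2875 and 2970, and it lay between -0.06 and 0.03 in the 3 lungs of the Y130A litters. These genes were used for the call, so that these values describe them and test nothing. Litter 2970 was the highest of its set in 176 of the 247 genes and litter 2875 in 56, and both lay above the other 2 lungs in 209 genes (84.6%, against 27.2% of all genes tested). The 26 lower genes were low to a like extent in all 4, with median deviations of -1.32, -1.5, -1.4 and -1.38. On the first principal component of the 1000 most variable genes, which held 58.0% of the variance, the S226A litters stood at 5.70, -4.31, 20.9 and 27.1 and the Y130A litters between -17.4 and -14.9. The typical spread between replicates, as a biological coefficient of variation, was 0.237 in the WT lungs of the S226A litters and 0.138 in those of the Y130A litters, against 0.176 and 0.184 in the mutant lungs. It ran from 0.171 to 0.233 in the liver groups and from 0.083 to 0.103 in the brain groups. The fit to all 47 libraries drew its estimate of spread from all of these groups. The authors set aside a WT lung of litter 3069 as an outlier on expression, so that the spread of the remaining 3 lungs of the Y130A litters was measured after that choice.

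Fitted to the 7 WT lungs alone, with no other group to share the estimate of spread, the same criteria called 8 genes, 0 higher and 8 lower, with 3644 genes at an unadjusted p below 0.05 (DESeq2 on all libraries called 358). The edgeR adjusted p of Epas1, Polr2a and Nova2 was 0.035, 0.028 and 0.040 in the fit to the 7 lungs. The adjusted p values printed below come from the fit to all libraries unless another fit is named. Of the 273 called genes, 267 could be tested in the fit to the 7 lungs, all 267 kept their sign, 264 had an unadjusted p below 0.05 and 83 an adjusted p below 0.05. The genes were called on these same lungs, so that the kept signs and unadjusted p follow from the call and test nothing. Without the lungs of litters 2875 and 2970 the count fell to 37, of which 22 were among the 273, and without 1 of them it was 160 (litter 2875) or 138 (litter 2970). A total of 74 genes were called whichever single library was left out, 68 higher and 6 lower, and 16 of these were also called without both litters 2875 and 2970, among them Epas1, Polr2a, Nova2, Ntrk2, Rel, Tlr5, Ifi203, Npffr2, Depdc1a and Gm20594.

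**Figure D1:**
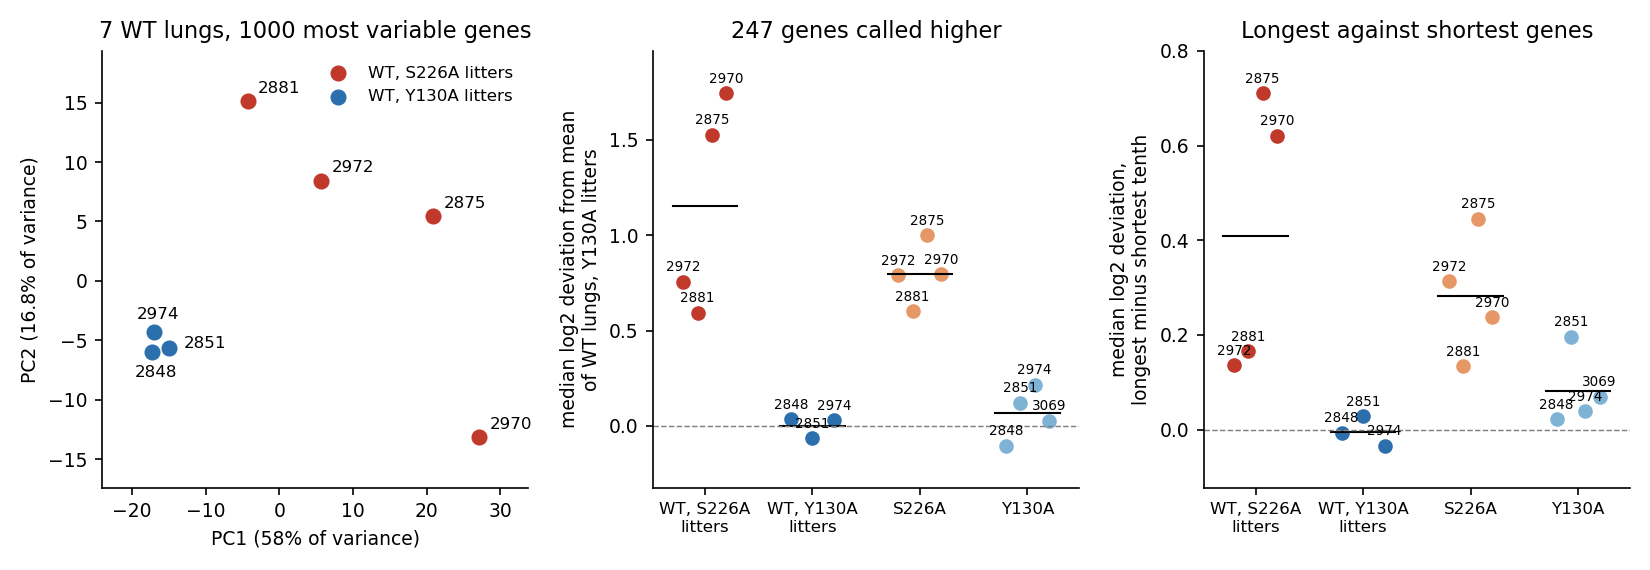
Left, the 7 WT lungs on the first 2 principal components of log2 CPM of the 1000 most variable genes, labelled by litter, with the Y130A litters together at -17.4 to -14.9 and the S226A litters spread from -4.31 to 27.1 on the first. Middle, median log2 deviation of the 247 higher genes from the mean of the WT lungs of the Y130A litters in each of 15 lungs, and right, the same deviation of the longest minus the shortest decile of genes; points are libraries and bars group means, and litters 2875 and 2970 are the highest WT lungs in both.

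Among the called genes with the highest level, Fn1, which encodes the matrix protein fibronectin, stood at 5528, 4738, 6231 and 5565 CPM in the S226A litters and at 2131, 2687 and 3118 CPM in the Y130A litters (log2 fold change 1.06, SE 0.22, adjusted p = 0.00053). All 4 lungs lay far above all 3, and Fn1 was the only called gene of 13 for extracellular matrix (median 0.16). Epas1 (chromosome 17, 86753700 to 86833410, GRCm38), which encodes the hypoxia-inducible factor HIF-2 alpha and is needed in fetal endothelium and type 2 cells, stood at 287, 197, 462 and 540 against 95.0, 117 and 128 CPM (1.71, SE 0.24, adjusted p = 7.1e-06, a 3.28-fold difference). Its relative Hif3a, the called member of the glucocorticoid list, was also called higher (1.21, SE 0.21), whereas the 12 genes of a list of hypoxia responses held 0 called genes and had a median log2 fold change of -0.23. The other 3 of the most abundant higher genes were Tns1, a protein of focal adhesions (1.20), Hspg2, the basement membrane proteoglycan perlecan (1.27), and Srrm2, a spliceosome protein (1.29), and in each of them litters 2875 and 2970 were the highest.

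Polr2a and the large chromatin regulators that follow were picked after their values were seen and are given as a description. Polr2a, the largest subunit of RNA polymerase II, stood at 168, 145, 239 and 290 CPM in the S226A litters and at 77.3, 65.4 and 84.0 CPM in the Y130A litters (1.48, SE 0.20, adjusted p = 5.4e-06). It did not overlap between the sets. Kmt2d (chromosome 15, 98831669 to 98871204), a methyltransferase of enhancers, stood at 168, 133, 388 and 563 against 100.4, 77.4 and 89.9 CPM (1.81, SE 0.31). Setd1b, a methyltransferase of promoters, stood at 22.9, 15.7, 51.6 and 93.1 against 10.4, 9.26 and 11.6 CPM (2.13, SE 0.35), and the H3K27 demethylase gene Kdm6b at 32.3, 25.2, 84.6 and 116 against 20.2, 16.3 and 17.3 CPM (1.84, SE 0.29). Litters 2875 and 2970 lay well above the other 2 in each of these, and the sets did not overlap. Kmt2a (1.19), the acetyltransferase Ep300 (1.04), the remodeller subunit Arid1a (1.14) and the corepressor Spen (1.20) were called as well. The exons of these 8 genes span between 6954 and 19931 bases in sum, against a median of 4177 bases for all genes tested.

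The 10 called genes with the largest positive log2 fold changes and no overlap were mostly rare in lung. Nova2, a splicing factor of neurons and endothelium, stood at 7.5, 8.18, 18.53 and 31.5 against 1.26, 3.24 and 2.03 CPM (2.91, SE 0.38, adjusted p = 2.4e-06), with no overlap. Muc5b, a secreted mucin of airways, stood at 149, 150, 296 and 47.9 against 35.8, 3.54 and 14.6 CPM (3.16, SE 0.82, adjusted p = 0.0058). Clec3b, a plasminogen-binding protein, rose from 6.11 ± 1.23 (SD, n = 3) to 27.6 ± 16.4 CPM (n = 4), and Mospd3 from 1.34 ± 0.315 to 6.18 ± 4.76 CPM. The remaining 6 (Npffr2, Kcnj10, Apol8, Hpcal4, Gad1 and Shisa6) were below 2 CPM on average in the Y130A litters, and all but Shisa6 averaged below 1 CPM in the S226A litters too. For Npffr2, the largest at 4.72 (SE 0.75), the levels were 0.422, 1.66, 0.651 and 0.548 against 0.0426, 0.0204 and 0.0201 CPM. In the mutant lungs Npffr2 lay between 0.0932 and 0.825 CPM in the S226A and between 0.184 and 0.466 CPM in the Y130A embryos, so that these sets overlapped. A membrane mucin of airways, Muc4, chosen after its values were seen, stood at 18.2, 14.6, 30.7 and 24.4 against 4.45, 3.91 and 7.77 CPM (2.03, SE 0.41).

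**Figure D2:**
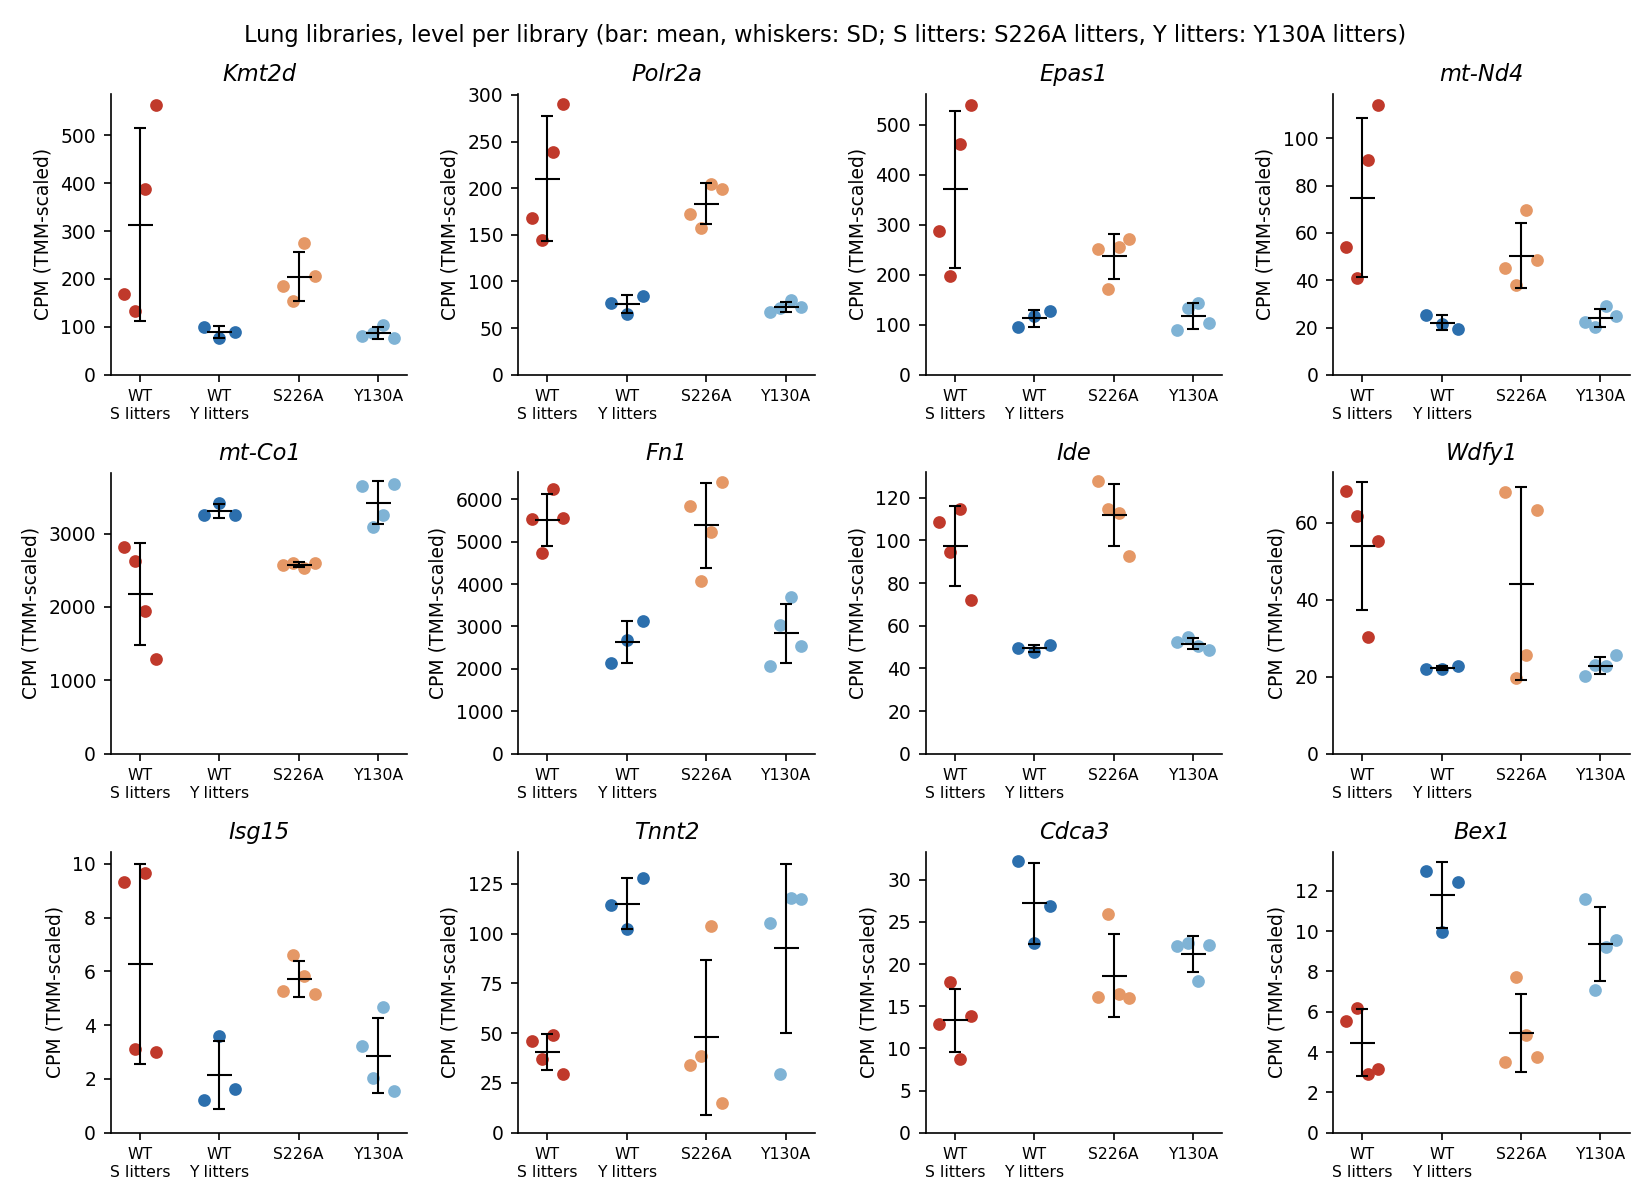
Levels of 12 genes in the 15 lungs, as CPM on linear axes from 0, for WT lungs of the S226A litters (S litters) and Y130A litters (Y litters) and for the S226A and Y130A mutants; points are libraries, bars the mean and whiskers the SD. Kmt2d, Polr2a, Epas1 and mt-Nd4 reach their highest levels in 2 WT lungs of the S226A litters, Ide and Fn1 separate both WT and mutant lungs by set of litters, and Cdca3 and Tnnt2 do so without overlap only in the WT lungs.

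Gene lists of lung cell types were read to see which cells the difference lay in. They were fixed with earlier results of these data known, so each is given by its counts and its median beside the values for all genes (1.62% called, median 0.00). Of 403 tested genes in 41 lists 12 were called (2.98%), 9 higher and 3 lower, and no list held more than 1 of them. Fewer cells of a type and less RNA per cell cannot be told apart in such bulk libraries.

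Of 15 genes of alveolar type 2 cells tested, 12 had a positive log2 fold change, 3 were higher at an adjusted p below 0.05 (10.8% of all genes) and 1 was called, with a median of 0.24. Sftpb, the surfactant protein without which newborns cannot breathe, stood at 925, 700, 1244 and 1318 against 450, 665 and 596 CPM (0.88, SE 0.24, adjusted p = 0.0075). Abca3, the lipid transporter of lamellar bodies, stood at 757, 686, 1110 and 1045 against 451, 591 and 559 CPM (0.75, SE 0.12, adjusted p = 3.0e-05). Neither reached the fold limit, though the sets did not overlap in either. Sftpc, the most specific type 2 gene, was 8155, 6773, 5945 and 4772 against 4792, 6684 and 6480 CPM (0.10, SE 0.58, adjusted p = 0.94). Sftpa1 differed by 0.37 (SE 0.36). Litters 2875 and 2970 were the highest for Sftpb, and litter 2970 was the lowest for Sftpc. The called member was Nkx2-1, the master factor of lung epithelium, at 49.6, 56.8, 108 and 152 against 46.8, 43.8 and 43.9 CPM (1.03, SE 0.25, adjusted p = 0.0035), where litters 2972 and 2881 lay close to the Y130A litters.

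Sox9, a factor of the distal tips of the growing airway tree, stood at 8.67, 6.97, 15.1 and 18.2 against 6.14, 6.76 and 4.21 CPM (1.10, SE 0.26). It was the only called gene of 8 in the list of tip progenitors, whose median was -0.12. Foxa1, a factor of airway and alveolar epithelium chosen after its values were seen, stood at 13.4, 13.8, 24.4 and 26.6 against 9.42, 9.59 and 10.01 CPM (1.01, SE 0.20). Scnn1a, the subunit of the sodium channel that clears lung liquid at birth, stood at 101, 79.6, 183 and 223 against 59.6, 70.4 and 77.2 CPM (1.08, SE 0.28). It was the only called gene of 9 for liquid transport (median 0.26). Without the lungs of litters 2875 and 2970 the log2 fold change of Nkx2-1 was 0.26, that of Sox9 0.47, that of Foxa1 0.51 and that of Scnn1a 0.40, and none of the 4 was called.

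Type 1 cells held 13 tested genes, 0 called in edgeR and 1 at an adjusted p below 0.05, with a median of 0.12 that turned to -0.06 once trends on gene length and GC content were removed. Ager was 1019, 939, 940 and 917 against 990, 1165 and 1170 CPM (-0.22, SE 0.20, adjusted p = 0.51). Hopx was 290, 312, 220 and 199 against 376, 339 and 311 CPM (-0.42, SE 0.23). The 1 gene past 0.05, Rtkn2, was 303, 219, 409 and 295 against 129, 205 and 205 CPM (0.77, SE 0.21, adjusted p = 0.0072). The direction thus differed between type 1 genes. Of 11 genes of airway secretory cells 10 were positive, with a median of 0.62, 2 at an adjusted p below 0.05 and 0 called. Scgb1a1, the club cell secretoglobin, stood at 241, 177, 174 and 113 against 55, 110 and 115 CPM (0.92, SE 0.32, adjusted p = 0.040). Ciliated cell genes had a median of -0.10 over 12 and 1 called gene, the large axonemal gene Hydin (1.08, SE 0.23), and the sign of that median turned to 0.05 with length and GC trends removed.

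For mesenchyme and vessels the median log2 fold changes were 0.09 for 11 endothelial, -0.09 for 8 lung capillary, 0.15 for 8 arterial and lymphatic, 0.21 for 7 pericyte, -0.12 for 9 matrix fibroblast, -0.34 for 7 alveolar myofibroblast and -0.56 for 9 smooth muscle genes. Of the arterial and lymphatic genes 3 were higher at an adjusted p below 0.05 (10.8% of all genes). Summed levels did not overlap for myofibroblast genes (3202 to 3851 against 4261 to 4434 CPM) or endothelial genes (2798 to 3088 against 2414 to 2733 CPM). Nor did they for pericyte genes (1075 to 1221 against 984 to 1041 CPM) or arterial and lymphatic genes (345 to 400 against 310 to 321 CPM). Lists of other kinds did not overlap either, among them extracellular matrix (16018 to 17940 against 12536 to 13730 CPM) and lipid synthesis (2607 to 3512 against 1937 to 2465 CPM). The called gene among the mesenchyme and vessel lists was Notch3, the receptor of mural cells, at 123, 116, 209 and 262 against 82.5, 73.5 and 71.9 CPM (1.22, SE 0.21). The endothelial cadherin gene Cdh5 was higher without reaching the fold limit (596, 537, 740 and 676 against 374, 460 and 454 CPM, 0.57, adjusted p = 0.00094). Pecam1, which encodes another junction protein of the same cells, was at 551 ± 75.2 and 559 ± 29.3 CPM (-0.02). Slco2a1, a prostaglandin transporter of lung vessels chosen after its values were seen, was called (136, 115, 229 and 252 against 64.1, 79.5 and 89.7 CPM, 1.23, SE 0.20). In smooth muscle Acta2 was 203, 307, 157 and 193 against 393, 280 and 333 CPM (-0.64, adjusted p = 0.15), and 0 of the 9 genes passed an adjusted p of 0.05. The macrophage list had a median of 0.07 with 0 of 12 called. Csf1r, the receptor for macrophage growth factor, was 56.0, 52.9, 55.2 and 55.9 against 43.4, 45.5 and 40.0 CPM (0.36, SE 0.08, adjusted p = 0.00092), a narrow gap without overlap.

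**Figure D3:**
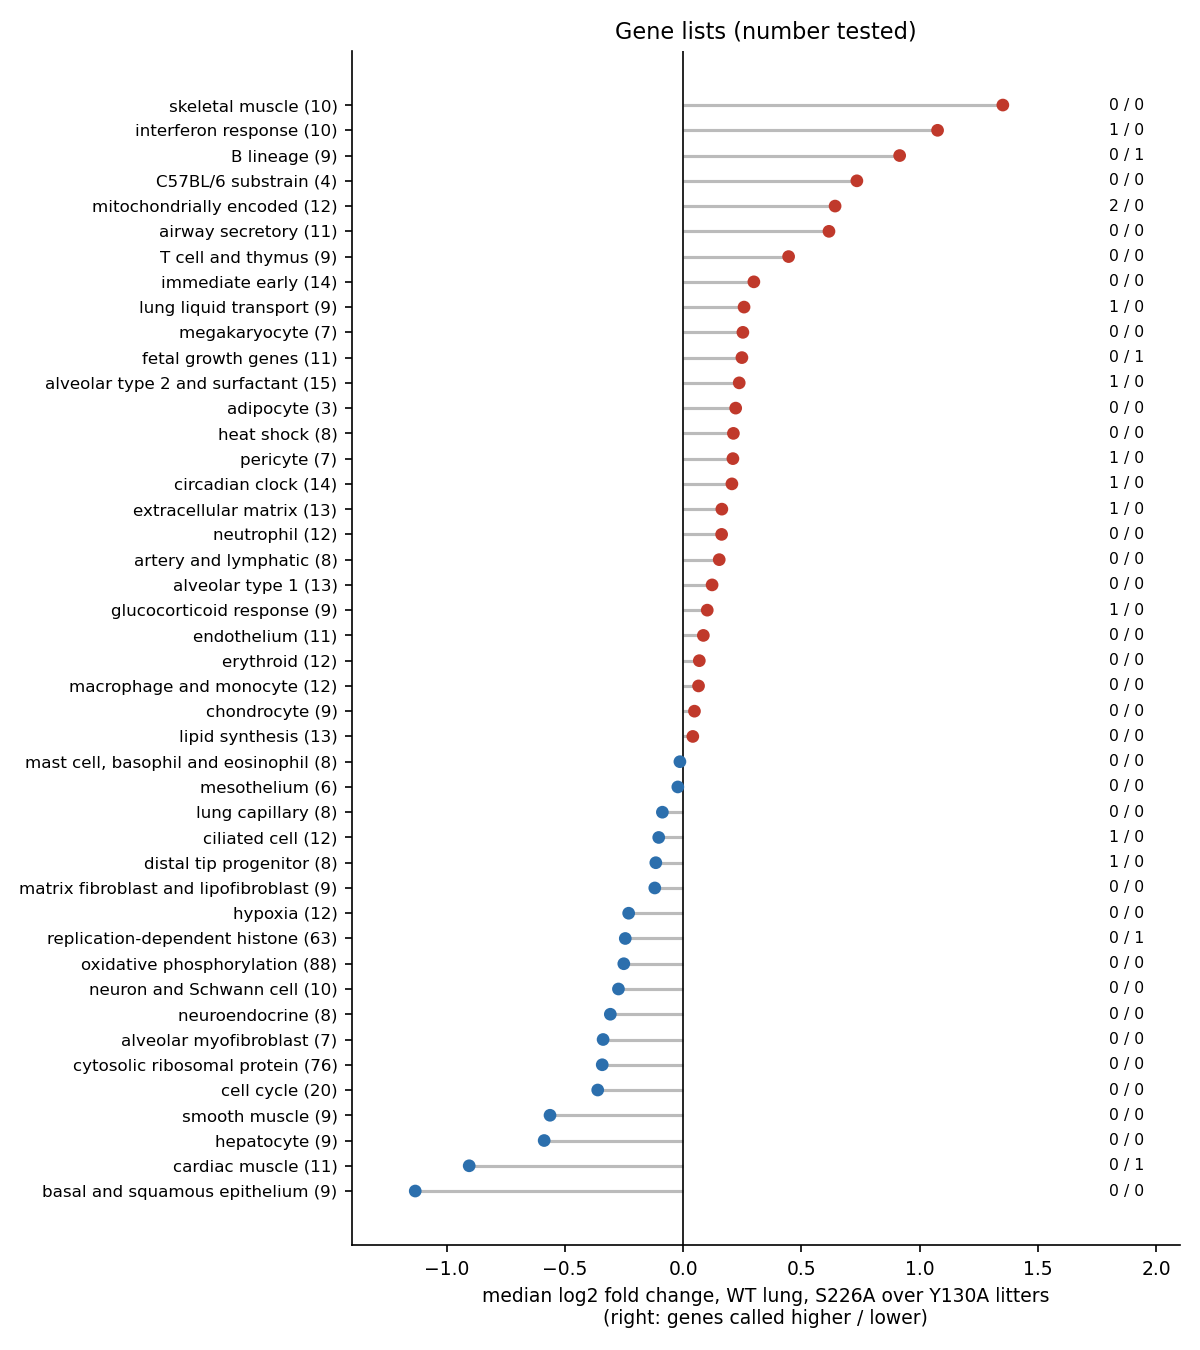
Median log2 fold change of 44 gene lists in WT lung (x axis, S226A litters over Y130A litters), with the number of genes tested after each name and the number called higher and lower at the right. Most medians lie within 0.5 of 0, interferon response and skeletal muscle lie above 1 and basal and squamous epithelium below -1, and no list has more than 2 called genes.

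Of 20 cell cycle genes 19 had a negative log2 fold change, 9 were lower at an adjusted p below 0.05 (9.24% of all genes) and 0 were called in edgeR, with a median of -0.36. In the mutant lungs the median was 0.13. The mean log2(CPM + 1) of the list was 5.22, 5.38, 4.67 and 5.31 against 5.68, 5.38 and 5.54, so that litter 2875 was the lowest of all 7 and litter 2881 equalled 2851. Top2a, the topoisomerase of dividing cells, stood at 211, 262, 126 and 212 against 354, 260 and 297 CPM (-0.58, SE 0.15, adjusted p = 0.0035). Birc5, a subunit of the chromosomal passenger complex, stood at 21.1, 16.9, 10.2 and 18.2 against 34.2, 23.5 and 30.0 CPM (-0.82, SE 0.16, adjusted p = 0.00035). Mki67 was at 346 ± 65 against 406 ± 91.0 CPM (-0.23, adjusted p = 0.27).

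Several of the 26 called lower genes act in mitosis, and these were picked from the 26 after their values were seen. Depdc1a stood at 3.14, 2.97, 1.70 and 2.25 against 10.3, 7.64 and 7.09 CPM (-1.72, SE 0.26, adjusted p = 1.4e-05). Cdca3, which triggers entry into mitosis, stood at 12.8, 17.8, 8.72 and 13.9 against 32.2, 22.5 and 26.9 CPM (-1.03, SE 0.17). The spindle and kinetochore genes Psrc1 (-1.01), Ska1 (-1.09), Haus5 (-1.30), Itgb3bp (-1.05) and Cenps (-1.16) were lower too. In the mutant lungs of the same litters none of these 7 was called, and their log2 fold changes between the sets lay between -0.19 and 0.25. Lin28b, which blocks the maturation of let-7 microRNAs and declines as organs mature, was 0.469, 0.225, 0.250 and 0.438 against 0.639, 0.957 and 0.906 CPM (-1.28, SE 0.36, adjusted p = 0.0081). It was the only called gene of 11 fetal growth genes, of which 8 were positive, with a median of 0.25 and 2 higher and 1 lower at an adjusted p below 0.05.

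Short transcripts of ribosomal proteins were lower and some mitochondrial transcripts were higher. Of 76 cytosolic ribosomal protein genes 71 had a negative log2 fold change and 40 were lower at an adjusted p below 0.05 (9.24% of all genes), with 0 called and a median of -0.34. Their share of all counts was 3.87%, 3.65%, 2.71% and 2.57% in the S226A litters and 4.26%, 4.07% and 3.95% in the Y130A litters, so that the 2 lungs with the highest called genes had the smallest share. Nuclear genes of oxidative phosphorylation had a median of -0.25, with 31 of 88 lower (9.24% of all genes) and 1 higher at an adjusted p below 0.05. The median of the ribosomal protein genes was -0.30 in WT liver, -0.26 in WT brain and -0.08 in mutant lung. That of the oxidative phosphorylation genes was -0.20, -0.16 and -0.05, so that neither shift was particular to lung. Mitochondrially encoded genes moved in both directions. The transcript mt-Nd4, a subunit of complex I, stood at 53.9, 40.8, 90.8 and 114 against 25.4, 21.6 and 19.3 CPM (1.76, SE 0.27, adjusted p = 1.8e-05). That of mt-Nd5 stood at 136, 120, 239 and 354 against 83.7, 63.4 and 67.1 CPM (1.57, SE 0.27). By contrast mt-Co1, of complex IV, stood at 2814, 2628, 1948 and 1292 against 3253, 3417 and 3250 CPM (-0.61, SE 0.15, adjusted p = 0.0028). The summed share of the mitochondrial genes was lower in the S226A litters (0.260% to 0.401% against 0.442% to 0.461%). The nuclear gene Lars2, of mitochondrial leucyl-tRNA synthetase, was 19, 14.4, 36.9 and 125 against 13.3, 12.9 and 11.7 CPM (1.94, SE 0.38), with litter 2970 far above the rest.

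The difference went with gene length. Among deciles of genes by summed exon length the median log2 fold change rose from -0.13 in the shortest to 0.20 in the longest, and the share called from 0.71% to 4.03%. The longest decile held 68 of the 247 higher and 0 of the 26 lower genes. The median exon length was 6851 bases for higher genes, 2820 bases for lower genes and 4177 bases for all genes. Per library, the median deviation of the longest minus that of the shortest decile was 0.136, 0.166, 0.711 and 0.621 on the log2 scale in the S226A litters and -0.007, 0.028 and -0.034 in the Y130A litters, so that litters 2875 and 2970 were the highest here as in the called genes. Deviations were taken from the mean of the WT lungs of the Y130A litters, which therefore lie near 0. In the mutant lungs the values were 0.313, 0.134, 0.445 and 0.237 in S226A and 0.021, 0.196, 0.039 and 0.070 in Y130A, so that these sets overlapped. GC content was related less steeply, with 0.711% called in the lowest and 2.78% in the highest decile. With the trends of each library on length and GC content removed, in a fit to the 15 lungs, 105 genes were called (99 higher and 6 lower), of which 92 were among the 273, against 164 in the same fit without that step. Kmt2d then had a log2 fold change of 1.30 (adjusted p = 0.0056) and was still called, whereas without litters 2875 and 2970 it was 0.77 (adjusted p = 0.071) and not called. What gave the relation to length was not tested.

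**Figure D4:**
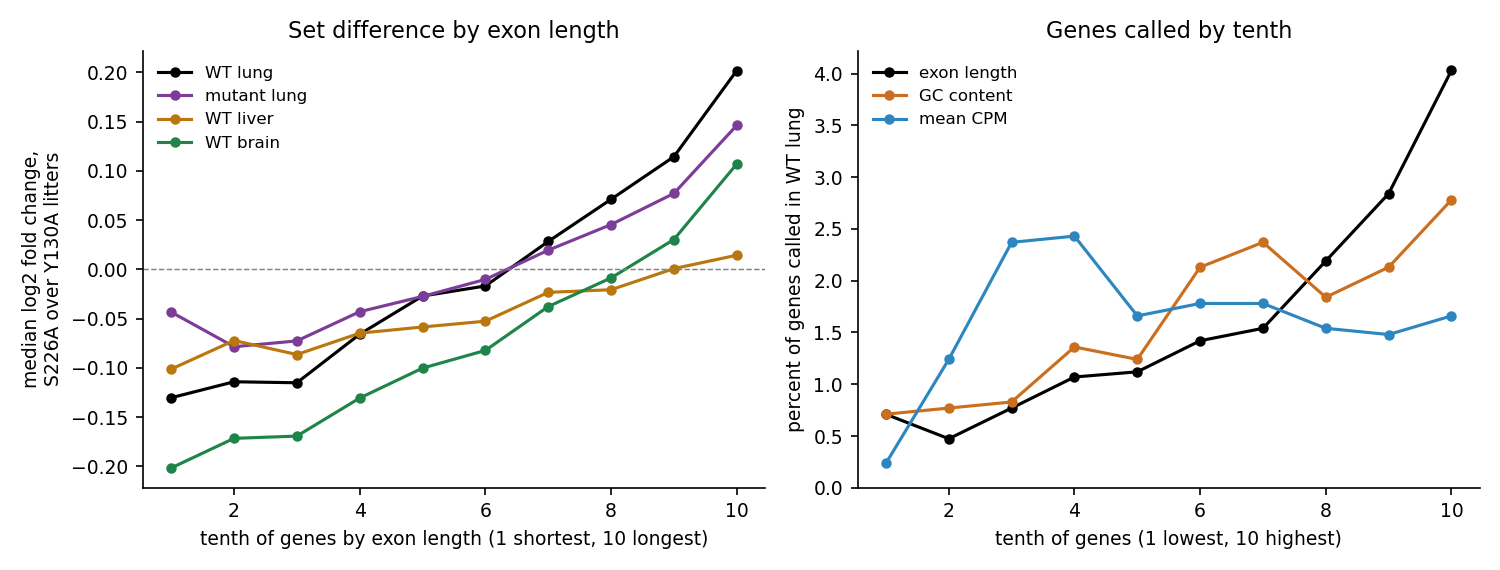
Left, median log2 fold change of S226A over Y130A litters in deciles of the genes by exon length in WT lung, mutant lung, WT liver and WT brain, rising from -0.13 to 0.20 in WT lung. Right, percent of genes called in WT lung in deciles by exon length, GC content and mean CPM, with exon length from 0.71% to 4.03%.

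Heart muscle genes were lower in the S226A litters. Tnnt2 (chromosome 1, 135836354 to 135852260), which encodes cardiac troponin T, stood at 46.2, 37.3, 49.0 and 29.3 against 114, 102 and 128 CPM (-1.51, SE 0.38, adjusted p = 0.0033). Of the 273 genes it was the only 1 also called in the fit to the 7 WT lungs alone. Its levels lay close together within each set, with a wide gap between. The atrial light chain gene Myl7 (115, 76.7, 112 and 71.3 against 213, 186 and 237 CPM, -1.18, adjusted p = 0.015) and Myh6 (190, 199, 405 and 239 against 603, 505 and 597 CPM, -1.14, adjusted p = 0.025) did not overlap either. Of 11 cardiac genes tested 10 were lower without overlap (against 11.3% of all genes), 4 had an adjusted p below 0.05 and 1 was called (median -0.90). The atrial peptide gene Nppa was 29.3, 8.85, 63.9 and 18.9 against 120, 146 and 143 CPM (-2.17, SE 0.86, adjusted p = 0.070). In the mutant lungs Tnnt2 reached 104 CPM in litter 2875 and was 29.7 CPM in litter 2851, so that there the sets overlapped. The median log2 fold change of the 11 cardiac genes between the mutant sets was -0.80, near that of the WT lungs. In the mouse, cardiac muscle also surrounds the pulmonary veins, and which muscle the reads came from was not tested.

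Markers of other tissues varied widely among the lungs of a set. Basal and squamous epithelium had the lowest median (-1.13, all 9 genes negative, 0 at an adjusted p below 0.05), with Krt4, a keratin of the oesophagus, at 12.7, 101, 1.25 and 1.10 against 111, 41.8 and 94.7 CPM (-1.49, SE 1.76, adjusted p = 0.62). Summed over the list the levels ran from 30.8 to 263 CPM in the S226A and from 123 to 311 CPM in the Y130A litters. Skeletal muscle had the highest median (1.35 over 10 genes, 0 called), with Acta1 at 34, 23.5, 46.9 and 3.45 against 17.3, 3.93 and 5.84 CPM. Hepatocyte genes had a median of -0.59 with 0 of 9 called (0.21 without litters 2875 and 2970), and Alb was 65.2, 301, 58.2 and 7.40 against 193, 97.0 and 151 CPM. Litter 2970 was the lowest of the 7 for Krt4, Acta1 and Alb, all of them tissues outside the lung. Among blood cells, erythroid genes had a median of 0.07, neutrophil genes 0.16, and T cell and thymus genes 0.45, with 0 called in each, and the sign of the last changed without litter 2972 or without litter 2974. The 9 B lineage genes had a median of 0.92, with 6 positive and 1 called, the lower gene Igll1, and in the fit to the 7 WT lungs alone, where 2 of them could be tested, the median was -0.10. The part of these tissues in the called genes was not tested.

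Genes of the response to type I interferon were higher in 2 of the 4 lungs of the S226A litters. All 10 list genes had positive log2 fold changes (0.54 to 1.55), with a median of 1.08, 3 at an adjusted p below 0.05 and 1 called. Their mean log2(CPM + 1) was 4.18, 2.91, 4.2 and 2.67 against 2.09, 2.99 and 3.10, so that litters 2972 and 2875 were high and litters 2881 and 2970 lay within the range of the Y130A litters. These are not the 2 litters in which the called genes were highest. Isg15, a ubiquitin-like modifier, stood at 9.33, 3.10, 9.67 and 3.01 against 1.21, 3.58 and 1.61 CPM (1.55, SE 0.56, adjusted p = 0.044). Ifit1, which binds foreign RNA, stood at 14.3, 1.98, 14.8 and 2.52 against 1.24, 2.91 and 4.77 CPM (1.5, SE 0.61, adjusted p = 0.079). Rsad2, the antiviral enzyme viperin, stood at 41.3, 14.6, 33.8 and 7.56 against 5.37, 12 and 11.8 CPM (1.33, SE 0.44, adjusted p = 0.026). The called member was the antiviral GTPase gene Mx1 (4.22, 2.02, 4.71 and 1.21 against 0.448, 1.53 and 1.31 CPM, 1.47, SE 0.40, adjusted p = 0.0072), whose sets overlapped. Ifi203, an interferon-inducible gene outside the list that was chosen after its values were seen, stood at 13.8, 6.52, 15.4 and 6.24 against 2.90, 4.78 and 3.99 CPM (1.43, SE 0.29) with the same pair of litters above the rest.

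The promoters of Isg15 and Ifit1 are shown because these members moved together across litters and carry the element through which interferon acts. The motif searched was GAAA, any 2 bases and GAAA again, on both strands in the 250 bases before the start of transcription, in RefSeq promoters of GRCm38.p6. It was found in 5 of the 7 interferon-list genes with a promoter sequence (71.4%), in 821 of 27025 promoters in all (3.04%), in 4 of 169 promoters of genes called higher (2.37%), and in 2 of 20 promoters of genes called lower. The stretches below run 5′ to 3′ on the strand of the gene, at chr4:156200820-156200939 (minus strand) and chr19:34640749-34640868 (plus strand), and capitals mark the matches.
Isg15: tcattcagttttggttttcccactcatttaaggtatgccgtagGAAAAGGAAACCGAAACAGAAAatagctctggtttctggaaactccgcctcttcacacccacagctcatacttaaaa
Ifit1: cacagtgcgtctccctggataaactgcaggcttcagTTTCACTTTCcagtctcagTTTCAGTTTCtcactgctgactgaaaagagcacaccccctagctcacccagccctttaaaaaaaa
In Isg15 3 matches overlap on the strand of the gene, and in Ifit1 2 separate matches lie on the opposite strand. The match is a description of these letters and no measurement of binding.

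Of 14 clock genes 12 had a positive log2 fold change and 3 an adjusted p below 0.05, all 3 higher (10.8% of all genes), with a median of 0.21 and Per1 as the called member at 93.2, 93.8, 161 and 193 against 63.2, 66.8 and 61.4 CPM (1.08, SE 0.18). The 9 genes of the glucocorticoid response had a median of 0.10, and their called member, Hif3a, stood at 153, 141, 314 and 374 against 114, 105 and 98.9 CPM. Of 14 immediate early genes 0 were called. Fosb was 0.422, 24.0, 22.8 and 1.04 against 1.21, 2.26 and 0.362 CPM and Fos 15, 118, 104 and 15 against 26.4, 38.8 and 12.9 CPM, so that litters 2881 and 2875 shared a high level that neither of the other 2 lungs had. This pair of litters is neither that of the called genes nor that of interferon. Heat shock genes had a median of 0.21, with 0 of 8 called.

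The largest difference of all lay in gene models that consist of major satellite, the tandem repeat that forms the heterochromatin around mouse centromeres and is among the places where Daxx and Atrx deposit H3.3. They were found after their values were seen and then defined by sequence alone, as the 12 tested models whose transcripts share at least 50% of their 12-base words with Gm10800 (lowest member 51.2%, next gene 3.64%). Parts of 3 of them on different chromosomes are shown so that the shared repeat can be seen, from GENCODE transcripts with no annotated UTR (GRCm38), 180 bases each, 5′ to 3′, with capitals for 12-base words found in all 12 models. The models lie at chr2:98666547-98667301 (minus strand), chr9:3000922-3002330 (plus strand) and chr14:19415857-19418930 (minus strand).
Gm10800: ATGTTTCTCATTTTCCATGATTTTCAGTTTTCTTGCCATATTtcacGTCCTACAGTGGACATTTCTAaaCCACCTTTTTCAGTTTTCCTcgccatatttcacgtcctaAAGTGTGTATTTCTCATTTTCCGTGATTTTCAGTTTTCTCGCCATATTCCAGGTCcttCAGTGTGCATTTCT
Gm10722: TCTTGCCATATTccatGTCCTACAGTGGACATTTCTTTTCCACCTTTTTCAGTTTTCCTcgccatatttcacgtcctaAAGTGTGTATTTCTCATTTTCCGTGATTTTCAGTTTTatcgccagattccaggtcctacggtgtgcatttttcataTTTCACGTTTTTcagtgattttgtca
Gm21738: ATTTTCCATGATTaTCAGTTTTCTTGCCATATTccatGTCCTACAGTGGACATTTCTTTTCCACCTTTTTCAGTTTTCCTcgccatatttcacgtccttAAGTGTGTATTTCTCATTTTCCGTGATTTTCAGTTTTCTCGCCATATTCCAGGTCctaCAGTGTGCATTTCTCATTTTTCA
Reads of such near-identical copies can be counted on 1 model or another, so that the sum over the 12 models is more certain than any of them.

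Gm10800 stood at 14.0, 23.1, 7.96 and 1.15 CPM in the WT lungs of the S226A litters and at 1839, 798 and 2067 CPM in those of the Y130A litters. Summed over the 12 models the levels were 17.5, 29.3, 11 and 1.53 against 2227, 1003 and 2557 CPM, the latter 0.118% to 0.301% of all counts. All 12 models were non-overlapping and had an adjusted p below 0.01 (2.3e-05 to 0.0042). The 3 with reads in all 7 lungs, Gm10800, Gm10801 and Gm21738, had log2 fold changes of -7.07 (SE 1.12), -6.86 (SE 1.14) and -6.71 (SE 1.14), and 4 of the others had no read in any lung of the S226A litters. None was called, because each SE in the fit to all libraries was above 1. In the fit to the 7 WT lungs alone 7 of the 12 were called, and these 7 and Tnnt2 were the 8 genes called there.

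The mutant lungs of the same litters were split the same way, with 12.2, 37.5, 6.52 and 51.5 CPM summed in S226A and 398, 313, 6083 and 300.5 CPM in Y130A, the last of them litter 3069. The WT brains were split in the same direction (59.5 to 138 against 1575 to 7600 CPM) but the WT livers were not, with 1789, 567, 3300 and 3065 CPM in the S226A litters and 508 to 885 CPM in the Y130A litters. The difference between the sets in lung was called against that in liver for 7 of the 12 models (for Gm10800 by -8.93 on the log2 scale). Against that in brain none was called, and for Gm10800 the difference was -1.28 (SE 1.26, edgeR adjusted p = 0.75). The Y130A set also had the deeper lung libraries, and the part of depth was not tested.

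**Figure D5:**
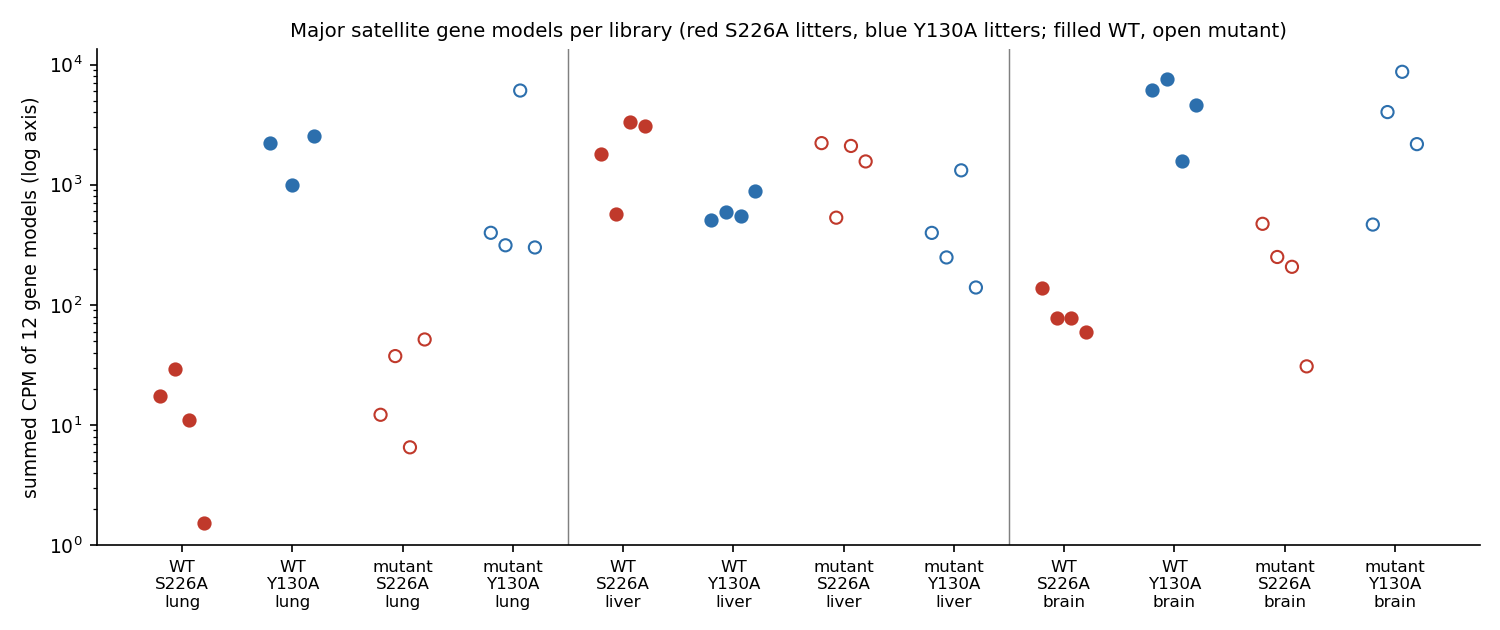
Summed CPM of the 12 major satellite gene models in each of the 47 libraries on a log axis, by tissue, genotype and set of litters (red S226A litters, blue Y130A litters, filled WT, open mutant). In lung all 8 libraries of the S226A litters lie at or below 51.5 CPM and all 7 of the Y130A litters at or above 300.5 CPM, whereas in liver the WT libraries of the S226A litters reach the higher levels.

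Ide differed between the sets in every tissue and in the mutant lungs at an adjusted p below 0.05. Ide, the insulin-degrading enzyme, stood at 108, 94.7, 115 and 72.0 against 49.7, 47.6 and 50.7 CPM (0.98, SE 0.15, adjusted p = 1.9e-05), just under the fold limit, and it differed by 1.12 in mutant lung, 0.70 in WT liver and 0.99 in WT brain. Wdfy1 was 68.2, 61.8, 30.4 and 55.2 against 22.1, 22 and 22.9 CPM (1.27, SE 0.41, adjusted p = 0.021), with the 3 lungs of the Y130A litters within 1 CPM of each other. In the S226A mutant lungs it was 68.0, 19.7, 25.6 and 63.3 CPM, so that litter 2881 was high in its WT and low in its mutant lung. Both stand in a list of genes that differ between substrains of C57BL/6, with Cyfip2 (0.49, adjusted p = 0.0024) and Nnt (3.97 ± 0.988 against 3.03 ± 1.11 CPM, 0.39). Both substrains C57BL/6N and C57BL/6J entered the crosses, and the share of each in a litter was not tested. Ftl1-ps1, a pseudogene of the ferritin light chain that can share reads with its parent, was the only gene called in the same direction in WT lung (1.68), WT liver (1.49) and WT brain (1.5), at 2.44, 1.26, 1.70 and 0.822 against 0.661, 0.326 and 0.463 CPM in lung.

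Among the lower genes Nlrp5, an oocyte gene of the maternal effect, had the most negative log2 fold change (-4.81, SE 0.99). It stood at 0, 0.0899, 0.20 and 0.0548 against 3.32, 2.22 and 2.01 CPM, and the Y130A mutant lung of litter 2851 was at 0.0459 CPM where the other 3 were at 1.89 to 2.30 CPM. The predicted gene Gm20594 was 0.188, 0.225, 0.10 and 0.219 against 1.64, 1.38 and 1.35 CPM (-2.97, SE 0.42, adjusted p = 7.4e-06), and it was called in WT brain as well. The other lowest genes were rare, with Igll1, of the pre-B cell receptor, Igfbpl1, Tmem196, Gm17087, the histone gene Hist1h2br, C330021F23Rik, Tceal5 and Tfr2 all at or below 1.24 CPM in every WT lung. At higher levels Bex1, of the same X-linked neighbourhood as Tceal5, stood at 5.53, 6.20, 2.91 and 3.18 against 13.0, 9.94 and 12.4 CPM (-1.39, SE 0.21). Crh, which encodes corticotropin-releasing hormone, stood at 2.06, 5.21, 1.25 and 2.68 against 13.7, 9.18 and 6.48 CPM (-1.80, SE 0.41). Aldh1b1, a mitochondrial aldehyde dehydrogenase, stood at 5.81, 3.82, 5.96 and 4.27 against 11.3, 10.3 and 11.5 CPM (-1.15, SE 0.26). Crh was chosen after its values were seen.

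The mutant lungs lie outside the 2 groups of WT lungs compared, though the fit to all 47 libraries used them in its estimate of spread. All but that of litter 3069 came from the litters of the WT lungs. Between S226A and Y130A mutant lungs 86 genes were called (0.509%), 68 higher and 18 lower in S226A. Of the 247 genes higher in the WT lungs of the S226A litters 241 (97.6%, against 50.3% of all genes) were positive there too, with a median log2 fold change of 0.73, and 25 were called higher, which is 36.8% of the 68. Epas1 (1.01), Polr2a (1.33), Kmt2d (1.23), Hspg2 (1.12), mt-Nd4 (1.06), Nova2 (1.44) and Muc4 (1.63) were among them, whereas Nkx2-1 (0.58), Sox9 (0.43) and Scnn1a (0.44) were not called. The median deviation of the 247 genes from the WT lungs of the Y130A litters was 0.789, 0.602, 1.00 and 0.796 in the S226A mutants and -0.10 to 0.22 in the Y130A mutants. Litter 2970, the highest of the WT lungs, was thus not the highest of the mutants. Of the 26 lower genes 19 (73.1%, against 48.7% of all genes) kept their sign and 1, Aldh1b1, was called. Mutation and set of litters cannot be told apart in that comparison.

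In the WT livers 70 genes were called between the sets (0.414%), with 4726 genes at an unadjusted p below 0.05 (28.0%). In the WT brains 17 were called (0.101%), 6 higher (0.0355%) and 11 lower (0.0651%). Of the 247 higher lung genes 86.6% were positive in liver (42.0% of all genes) with a median of 0.35, and 83.4% in brain (39.1%) with a median of 0.23, and 3 and 2 of them were called there in the same direction. In liver 2 others of the 247 were called in the opposite direction. The trend on exon length was present in brain as well (-0.20 in the shortest to 0.11 in the longest decile) and weaker in liver (-0.10 to 0.01). The difference itself was tested between tissues by interaction, in a fit that did not model that most of these lungs, livers and brains came from the same embryos. By that test 26 genes (0.154%) were called in lung against liver, 15 with the larger value in lung (0.0888%) and 11 with the smaller (0.0651%). In lung against brain 7 were called (0.0414%). Nova2 was called in both (2.38 and 2.70), and Notch3 (1.49), Foxa1 (1.44), Tfr2 (-2.44), Gm20594 (-2.62) and 7 of the satellite models in lung against liver.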

How the data were processed

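RNA-seq of total RNA was measured in 47 libraries of frozen lung, liver and brain from E18.5 mouse embryos, of which 7 are the WT lungs compared here. The authors deposited raw read counts per gene, made from reads aligned with STAR 2.6.0b to GRCm38, with FastQC 0.11.5 and Trim Galore 0.6.5 per the submitters' processing notes. The strand setting of the counting is not given in the sources used here. The table held 20456 genes, of which 20445 were matched to GENCODE M21 for position, exon length and GC content. Samples were grouped by the labelled tissue, genotype and litter, and each lung of a group came from its own litter.

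Counts were fitted in edgeR 4.0.16 (R 4.3.3, limma 3.58.1) by the quasi-likelihood method, with 1 coefficient per group over all 47 libraries, TMM scaling and a filter on low counts (at least 10 in the smallest group and 15 in total), which kept 16892 genes. P-values were adjusted by Benjamini-Hochberg over all genes tested. The SE was derived from the log2 fold change and the F statistic. A call required an adjusted p below 0.01, a log2 fold change beyond 1 and an SE below 1, and for differences between tissues the first 2 of these. The fit was tested on simulated data. Levels are CPM with TMM scaling, and scores of lists are means of log2(CPM + 1). Single values were compared by exact permutation tests.

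Genes were named by these rules: the 10 highest and 10 lowest log2 fold changes among called genes without overlap, the 5 most abundant called genes in each direction, the called genes of each list or otherwise up to 4 in list order, and genes called in all 3 WT tissues. Others are said to be chosen after their values were seen where they appear. Abca3, Rtkn2, Krt4, Myh6, Myl7, Nppa, Birc5, Rsad2, Csf1r, mt-Co1, Fosb, Rel, Ntrk2, Tlr5, Lars2, Ide and Wdfy1 were also chosen that way. The groups compared, the lists and the tests were chosen with earlier results of these data known. Alternatives were DESeq2 1.42.0, other scaling, filters and criteria, subsets of libraries, thinned counts, a block on the replicate number and a covariate of Y-linked genes. The removal of litters 2875 and 2970 together and of trends on length and GC content were added after seeing the data. The WT lung of litter 3069, which the authors removed as an outlier by principal components and a heatmap, was not analysed here. Depth ranged from 15722147 to 42222108 counts in the WT lungs.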

Additional observations from a re-analysis of the deposited data

Results flagged for a closer look

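Of 148 measures tested in the 4 WT lungs of the S226A litters, 5 had a library far from the other 3 by Dixon's criterion, and chance gives this for about 1 in 20 measures. Krt4 was high in litter 2881 (101 CPM, others 1.10 to 12.7), Rel, a subunit of NF-kappa B, was low in the same litter (6.34 CPM, others 12.2 to 12.4), and Igfbpl1 had reads in litter 2970 only (0.164 CPM). The score of B lineage genes was high in litter 2972 (0.977, others 0.578 to 0.633) and that of lipid synthesis genes low in litter 2875 (6.5, others 6.62 to 6.64).

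The difference between the sets was itself different in lung and liver for 26 genes and in lung and brain for 7 genes. Against liver the named genes were the satellite models Gm10717 (-8.65), Gm10718 (-7.69), Gm10722 (-7.53), Gm10800 (-8.93), Gm10801 (-8.14), Gm11168 (-7.70) and Gm21738 (-8.44), the lower genes Gm20594 (-2.62) and Tfr2 (-2.44), and the higher genes Foxa1 (1.44), Notch3 (1.49) and Nova2 (2.38), each as the log2 fold change in lung minus that in liver. Against brain it was Nova2 (2.70).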

How the results depend on the processing

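The direction of the named genes was stable and their calls were not. Of 98 genes followed in WT lung, 70 were called, and over the alternatives 1491 values stayed on their side of the criteria, 405 lost and 24 gained a call and 4 changed sign. The sign changed for Alb (0.33 without litters 2875 and 2970), for Sftpc (-0.038 without replicate 1 of either set, -0.038 to 0.22 with 1 lung left out and up to 0.33 over all alternatives) and for mt-Nd1 (0.15 with length and GC trends removed), none of them called. The count of 273 genes was 164 in a fit to the 15 lungs alone, and within that fit 105 with length and GC trends removed and 114 with a covariate of Y-linked genes. It was 37 without litters 2875 and 2970, 8 in the 7 WT lungs alone and 3388 at an adjusted p below 0.05 alone (1827 higher and 1561 lower, against 247 and 26). Leaving out 1 WT lung gave 138 to 400, with the counts of 138 without litter 2970 and 160 without litter 2875 beyond 1.5 times, and 400 without litter 2881 just within it. DESeq2, RLE scaling, thinning and both filters left the count between 267 and 358. In liver (70) the count was 153 by DESeq2, 108 without the limit on the SE and 2209 at an adjusted p below 0.05 alone, which gave 1010 in brain (17) and 1131 in mutant lung (86, and 137 by DESeq2). Lung against liver (26) gave 133 by DESeq2 and 11 to 101 with 1 WT lung left out, and lung against brain (7) gave 53 by DESeq2, 4 without the filter, 2 with RLE scaling and 1 to 131 with 1 WT lung left out. The causes were not tested.

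With the replicate number as a block in the 15 lungs 115 genes were called, against 164 without it. The numbers name different litters in the sets, and same-numbered lungs deviated together with correlations of 0.01, -0.12 and 0.00, so that they share a number and no pairing.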
